A study of Mus musculus with 6 samples.

Results

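The genes described here are 36 metalloproteinases and their inhibitors, measured in macrophages grown from mouse bone marrow of 2 genotypes. They were taken from a list of gene names and comprise 17 matrix metalloproteinases (MMPs), 7 ADAMs, 7 ADAMTSs and 5 inhibitors (Timp1 to Timp4 and Reck). All 36 had a probe on the array, of 20018 gene symbols with a named probe in all. Wild-type (WT) mice were compared with mice lacking Bach1, a heme-binding repressor that binds DNA together with small Maf proteins. All mice were C57BL/6 and 11 weeks old, and each genotype had 3 mice, 2 labelled male and 1 labelled female (WT 3 and KO 949). Bone marrow cells of every mouse were cultured for 5 days with the growth factor GM-CSF at 10 ng/mL, in medium that held 10% fetal bovine serum. No other agent is named in the labels, and they do not say how the Bach1 allele was made. Each mouse gave 1 single-colour array.

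MMPs are zinc-dependent endopeptidases that are secreted or held at the cell surface and cut collagens, elastin, laminins and other matrix proteins. ADAMs are membrane-anchored relatives that release the outer part of cytokines, receptors and adhesion molecules from the cell surface, and ADAMTSs are secreted relatives that process procollagens and proteoglycans. TIMPs bind the active site of these enzymes, and Reck is a membrane-anchored inhibitor of several MMPs. Macrophages are a known source of Mmp12, Mmp9 and Mmp14 in inflamed tissue, and many MMP promoters carry a binding element of the AP-1 factors close to the start site.

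A level is the log2 signal minus the log2 of the array's 75th percentile, so that 0 is the level of that percentile. Differences are KO minus WT on the same log2 scale. Signals of different probes are not read as relative amounts of RNA, although marker sums add them and the brightest genes of a family are chosen by them. A gene was tested when 3 or more of the 6 arrays read its probe well above background, which left 15737 genes. The fit was made with limma over all of them, with Benjamini-Hochberg adjustment and a threshold of 0.05. The 3 WT arrays shared 1 slide with KO 947, and KO 948 shared another with KO 949. In a fit with the slide as a block, KO 947 alone sets the genotype difference, and this slide-blocked value is given beside each of the 36 genes that passed (0.534% of all genes tested passed in that fit). The share of spots well above background ran from 70.3% to 73.2% on the WT arrays and from 62.5% to 65.1% on the KO arrays. Hmox1, a known Bach1 target, rose by 2.14 (adjusted p = 0.0114; slide-blocked 2.10, adjusted p = 0.074), while the Bach1 probe itself differed by -0.54 (adjusted p = 0.262), and the sources used here do not place that probe relative to the deleted part.

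Of the 36 genes, 29 were tested, 1 rose (Mmp27), 4 fell (Timp3, Adamts2, Mmp25 and Adam19) and 24 did not pass. Timp3 was well above background on the WT arrays only, so it entered the test through the group where it was high. Over all genes tested, 3.43% passed, 1.15% as higher and 2.28% as lower in KO. The median difference of the 29 was -0.08, beside -0.01 for all genes tested, with 14 differences above 0 and 15 below. In 17 of the 29 the WT and KO arrays did not overlap, 6 with KO higher and 11 with KO lower, beside 26.9% of all genes tested. Mmp27 is among these 17, but its probe was named only by the authors' deposited table, all of whose probes separate the genotypes. Its place among the 17 was therefore set in advance, and its rise is not an independent addition to these counts. An unadjusted p under 0.05 was reached by 14 of the 29, beside 20.4% of all genes tested, and at an adjusted p under 0.1 there were 1 rise and 7 falls, beside 7.32%. The largest fall was that of an inhibitor, while the secreted Mmp8, Mmp12 and Mmp13, whose probes read above the array's 75th percentile on every array, did not pass.

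**Figure D1:**
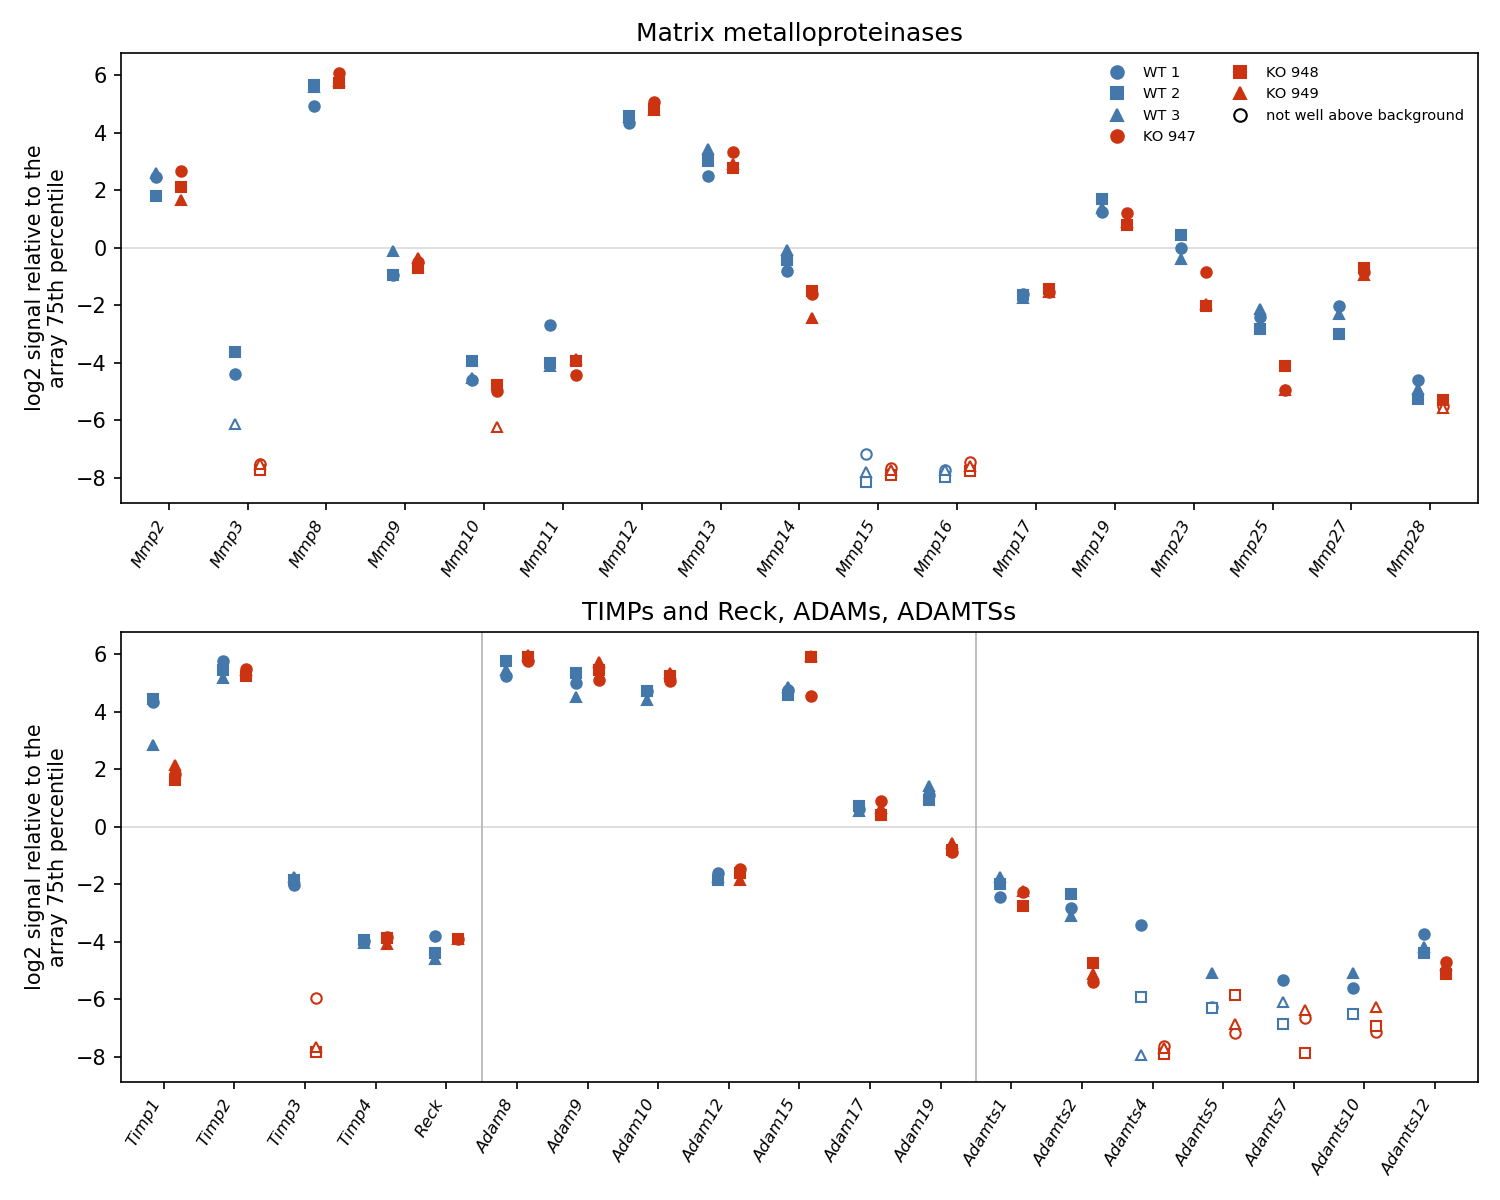
Level of each of the 36 genes on each array, on the log2 scale with the array's 75th percentile at 0 (y axis), for MMPs (top) and for inhibitors, ADAMs and ADAMTSs (bottom); blue symbols are WT and red symbols KO mice, and open symbols mark probes not well above background. Timp3 is open on all 3 KO arrays and between -2.04 and -1.76 on the WT arrays, while Mmp8, Mmp12 and the 4 ADAMs Adam8, Adam9, Adam10 and Adam15 lie above 4 on every array.

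The inhibitors did not move together: Timp3 fell, Timp1 was lower without passing, and Timp2, Timp4 and Reck differed by less than 0.4 with the probes used. Timp3, the only TIMP that binds the matrix and an inhibitor of Adam17 as well as of MMPs, read -2.04, -1.84 and -1.76 on the arrays of WT 1, 2 and 3, against -5.94, -7.82 and -7.65 on those of KO 947, 948 and 949. It was well above background on every WT array and on no KO array, so it entered the test through the WT arrays and its fold is approximate. For a floor estimate, the mean WT level was set against the lowest level that any probe read well above background on each KO array. The measured value was used where it was higher. By this estimate Timp3 was 16.9-fold lower in KO. It is not a strict lower bound, since brighter probes could also miss the background criterion. Mmp28 did so at -5.58 on KO 949, where the floor was -6.105. The fitted difference was -5.26 ± 0.48 (SE, n = 3 mice per genotype, adjusted p = 0.0093), and the slide-blocked difference was -4.06 (adjusted p = 0.0195). Timp3 also passed within the slide that holds both genotypes, where KO has 1 array, and with normexp background correction, where the difference was -2.50. The stretch of the Timp3 promoter from 250 bases before to 10 bases after the RefSeq start site (GRCm38.p6, chr10:86300162-86300421, plus strand) is shown because this gene had the largest difference of the group. Its 300-base window holds 24 CpG dinucleotides, beside a median of 7 over all 32851 windows, and no AP-1 core (TGANTCA, searched on both strands).
Timp3: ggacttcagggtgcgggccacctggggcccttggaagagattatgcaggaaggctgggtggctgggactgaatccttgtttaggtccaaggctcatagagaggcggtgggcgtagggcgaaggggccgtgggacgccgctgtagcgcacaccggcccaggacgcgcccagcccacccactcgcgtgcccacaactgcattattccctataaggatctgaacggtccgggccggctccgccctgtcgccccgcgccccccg

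Timp1, a secreted inhibitor of most MMPs, read 4.33, 4.46 and 2.85 on the arrays of WT 1, 2 and 3, against 1.84, 1.63 and 2.15 on those of KO 947, 948 and 949. No KO value reached the WT values, with WT 3 closest to the KO arrays, and the difference of -2.01 ± 0.43 did not pass (adjusted p = 0.0609, or 0.208 slide-blocked, where it was -2.04). Without WT 3 it was -2.52 and passed (adjusted p = 0.00909), as it did over the arrays labelled male (-2.66, adjusted p = 0.0105). Timp2, which also takes part in the activation of Mmp2 by Mmp14, read 5.75, 5.45 and 5.18 in WT and 5.48, 5.23 and 5.44 in KO. Its groups overlapped (-0.08, adjusted p = 0.857), and a second probe differed by 0.44 with overlapping groups too, so the sign of Timp2 depends on the probe. Timp4, the inhibitor best known from heart and fat, read -3.98, -3.92 and -4.05 in WT and -3.84, -3.86 and -4.08 in KO, a difference of 0.06 within the spread of the arrays (adjusted p = 0.859). Reck read -3.79, -4.39 and -4.60 in WT and -3.91, -3.89 and -3.92 in KO (0.35, adjusted p = 0.427). All 3 KO values of Reck fell inside the WT range.

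Among the 17 MMPs, 14 were tested, of which Mmp27 rose, Mmp25 fell and 12 did not pass, with a median difference of -0.31. The collagenases and the macrophage elastase are taken first. Mmp8, the neutrophil collagenase, read 4.91, 5.65 and 5.59 in WT and 6.05, 5.72 and 5.78 in KO. Every KO array lay above every WT array by a narrow margin, and the difference of 0.47 ± 0.23 did not pass (adjusted p = 0.319). Mmp12, the macrophage elastase, read 4.35, 4.56 and 4.54 in WT and 5.08, 4.81 and 4.79 in KO. Here too the groups did not overlap, but the difference of 0.41 ± 0.15 did not pass (adjusted p = 0.201), and a second, dimmer Mmp12 probe overlapped between the genotypes (0.74). Mmp13, an interstitial collagenase, read 2.50, 3.03 and 3.42 in WT and 3.34, 2.76 and 2.92 in KO, a difference of 0.02 with overlapping groups (adjusted p = 0.973). The gelatinases, which cut denatured collagen and type IV collagen, overlapped between the genotypes as well, with -0.14 for Mmp2 (from 1.78 to 2.60 in WT and from 1.65 to 2.68 in KO) and 0.14 for Mmp9 (from -0.95 to -0.10 in WT and from -0.69 to -0.36 in KO). The sign of the Mmp2 and Mmp13 differences changed under other settings.

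Of the stromelysins, which cut laminin, fibronectin and proteoglycans, Mmp3 was read in WT only. Its levels were -4.38, -3.63 and -6.13 in WT and -7.52, -7.72 and -7.53 in KO, with WT 1 and WT 2 the only arrays on which it was well above background. It was therefore not tested, and no fold is given because WT 3 was not well above background either. Mmp10, its close relative, read -4.59, -3.92 and -4.51 in WT and -4.97, -4.76 and -6.22 in KO. All KO arrays were below all WT arrays, KO 949 being not well above background, and the difference of -0.97 ± 0.41 did not pass (adjusted p = 0.242). With normexp background correction the Mmp10 difference was -0.30. Mmp11, which is cleaved to its active form inside the cell, overlapped between the groups (-0.48, adjusted p = 0.548), its highest value being -2.68 in WT 1.

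Mmp27, a stromelysin-related MMP that stays largely inside the cell, was the only one of the 36 genes that rose. It read -2.01, -3.00 and -2.29 in WT and -0.85, -0.69 and -0.95 in KO, so the groups stood apart by more than 1 log2 unit. The rise was 3.04-fold (1.60 ± 0.27, SE, n = 3 per genotype, adjusted p = 0.0333). The slide-blocked difference was 1.59 and did not pass (adjusted p = 0.147). Leaving out any 1 array other than KO 947 also ended the call, with an adjusted p of 0.0539 for WT 1, 0.0512 for WT 2, 0.076 for WT 3, 0.112 for KO 948 and 0.0813 for KO 949, and 8 of 20 alternatives kept it. The probe is named Mmp27 in the authors' deposited table, which holds only probes whose genotypes do not overlap, and its transcript accession matched no entry of the RefSeq table. A probe of Mmp27 whose groups overlapped would not have been named, so the separation of its groups was set by the naming.

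Mmp27 lies in a run of MMP genes on chromosome 9, which in RefSeq order are Mmp13, Mmp12, Mmp1b, Mmp3, Mmp1a, Mmp10, Mmp8, Mmp27, Mmp20 and Mmp7. The neighbours did not share a direction: Mmp27 rose, Mmp8 and Mmp12 were higher without passing, Mmp13 overlapped, and Mmp3 and Mmp10 were lower without a call. Mmp1a, Mmp7 and Mmp20, none of them among the 36, failed the filter, and Mmp1b differed by 0.60 (adjusted p = 0.284). The promoters of this run are shown because Bach1 and AP-1 factors bind related elements. Each stretch runs from 140 bases before to 10 bases after a RefSeq start site on the plus strand of GRCm38.p6, with the AP-1 core TGANTCA in capitals where present. The stretches are Mmp13 at chr9:7272374-7272523, Mmp12 at chr9:7347234-7347383 (the second of its 2 start sites), Mmp3 at chr9:7445682-7445831, Mmp10 at chr9:7502202-7502351, Mmp8 at chr9:7558289-7558438 and Mmp27 at chr9:7571256-7571405.
Mmp13: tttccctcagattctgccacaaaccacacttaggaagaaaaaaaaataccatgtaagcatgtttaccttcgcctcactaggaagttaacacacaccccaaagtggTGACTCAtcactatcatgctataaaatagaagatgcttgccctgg
Mmp12: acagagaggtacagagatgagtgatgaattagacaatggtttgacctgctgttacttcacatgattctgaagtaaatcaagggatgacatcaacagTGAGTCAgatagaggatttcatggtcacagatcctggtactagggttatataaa
Mmp3: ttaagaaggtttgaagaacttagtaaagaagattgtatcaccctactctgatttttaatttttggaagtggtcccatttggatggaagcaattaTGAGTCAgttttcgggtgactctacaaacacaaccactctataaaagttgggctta
Mmp10: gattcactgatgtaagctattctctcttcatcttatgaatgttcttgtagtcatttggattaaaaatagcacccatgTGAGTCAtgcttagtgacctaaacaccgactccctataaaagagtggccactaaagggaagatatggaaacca
Mmp8: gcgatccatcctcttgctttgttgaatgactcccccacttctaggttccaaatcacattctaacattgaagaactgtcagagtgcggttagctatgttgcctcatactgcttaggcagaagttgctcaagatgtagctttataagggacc
Mmp27: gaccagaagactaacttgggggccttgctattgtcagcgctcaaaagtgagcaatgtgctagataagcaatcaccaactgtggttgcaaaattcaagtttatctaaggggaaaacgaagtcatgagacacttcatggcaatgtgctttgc

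The core begins at base -35 in Mmp13, -44 in Mmp12, -46 in Mmp3 and -63 in Mmp10, and it is not in the windows of Mmp8 and Mmp27. Of the 36 genes, 25 had promoter windows in the table, 29 windows of 300 bases in all (250 before and 50 after the start). The core was in 5 of these 29, the fifth being an Adam19 window, beside 7.81% of all windows. A longer element, the core directly preceded by TGC, which resembles the site that Bach1 and small Maf proteins bind, was in none of the 29, beside 0.423% of all windows. The 5 genes with a core comprised 1 that fell (Adam19), 3 tested genes that did not pass (Mmp10, Mmp12 and Mmp13) and the untested Mmp3.

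**Figure D2:**
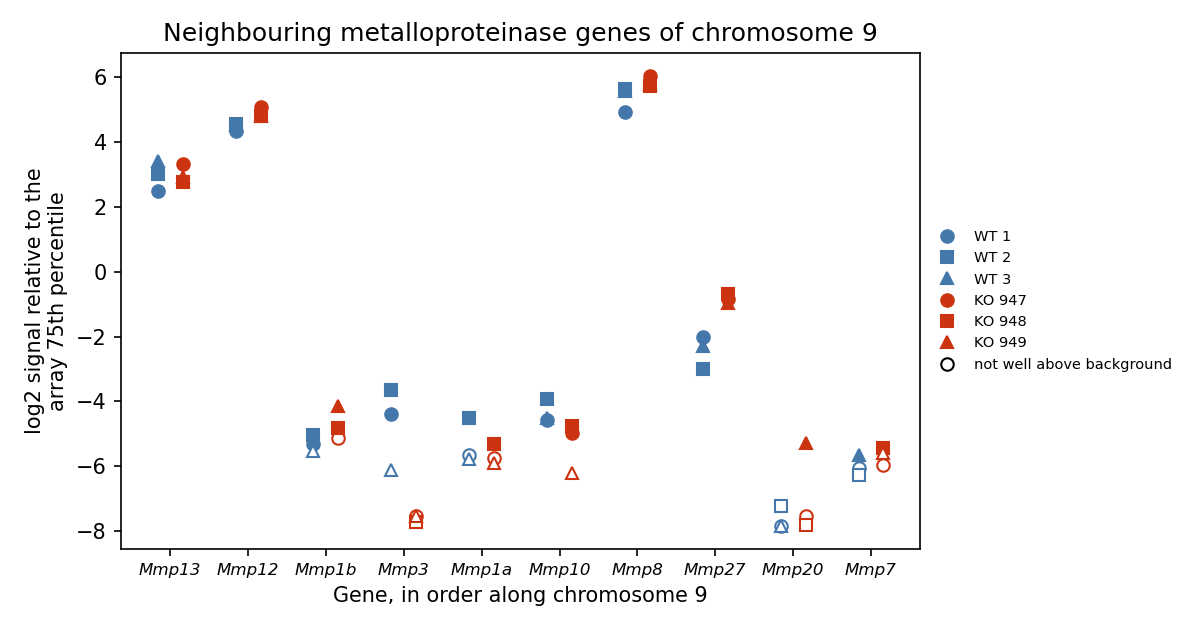
Level of the MMP genes of chromosome 9 on each array (y axis, log2 with the array's 75th percentile at 0), in their order along the chromosome (x axis, not to scale); blue symbols are WT and red symbols KO, and open symbols are not well above background. Mmp27 lies from -3.00 to -2.01 in WT and from -0.95 to -0.69 in KO, next to Mmp8, whose KO values begin at 5.72 just above the highest WT value of 5.65.

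Of the membrane-bound MMPs, Mmp25 was the only one that passed, as a fall. Mmp25, which is tethered to the surface of leukocytes by a lipid anchor, read -2.41, -2.83 and -2.12 in WT and -4.96, -4.12 and -4.93 in KO. All KO arrays lay well below all WT arrays, and the fall was 4.66-fold (-2.22 ± 0.29, SE, n = 3 per genotype, adjusted p = 0.0168). The slide-blocked difference was -2.51 and missed the threshold (adjusted p = 0.0678), and with normexp background correction it was -1.25. The call was lost without WT 1 (adjusted p = 0.0789), without KO 949 (adjusted p = 0.0512) and over the arrays labelled male (-1.92, adjusted p = 0.0994). Neutrophil markers were also lower in KO, with a summed relative signal of 167 to 205 in WT and 97.4 to 117 in KO. Of 9 tested markers, 1 fell past the threshold (S100a9), beside 2.28% of all genes tested. Of these 9, 5 were lower on all KO than on all WT arrays, beside 13.5% of all genes tested. Mpo, Camp and Retnlg overlapped between the genotypes, as did Elane, which went the other way (0.20, adjusted p = 0.603). The part of neutrophils in the Mmp25 result was not tested.

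Mmp14, the collagenase of the cell surface that activates Mmp2, read -0.81, -0.42 and -0.07 in WT and -1.62, -1.50 and -2.46 in KO. The groups did not overlap, and the difference of -1.43 ± 0.31 did not pass (adjusted p = 0.0623; slide-blocked -1.19). Mmp23, an MMP whose prodomain anchors it in the membrane, read 0.00, 0.43 and -0.41 in WT and -0.84, -2.02 and -1.97 in KO. KO 947 lay nearer to the WT arrays than KO 948 and 949 on the other slide, and the difference was -1.62 ± 0.37 without passing (adjusted p = 0.0714; slide-blocked -0.85). Without KO 947 it was -2.00 and passed (adjusted p = 0.0253). Mmp17, the other lipid-anchored MMP, differed by 0.16 (adjusted p = 0.557), with levels from -1.76 to -1.61 in WT and from -1.56 to -1.42 in KO. Mmp15 and Mmp16, also membrane-type MMPs, were not well above background on any array. The secreted Mmp19 and Mmp28 were lower on all KO than on all WT arrays without passing (-0.47, adjusted p = 0.224, and -0.54, adjusted p = 0.205), and Mmp28 was well above background on 1 KO array. The Mmp28 difference shrank to -0.14 both with quantile normalization and with normexp background correction.

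**Figure D3:**
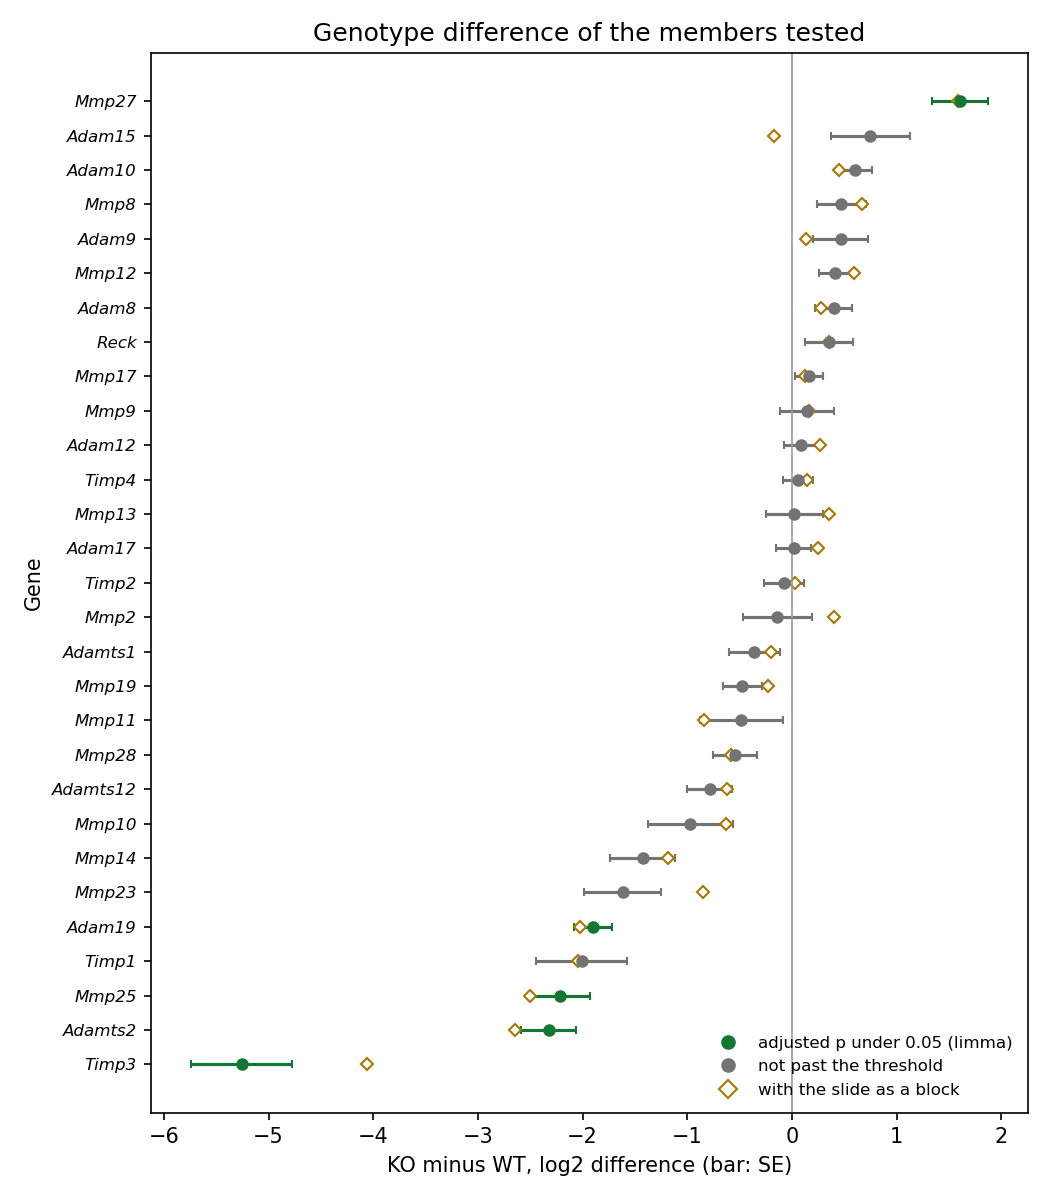
Genotype difference of the 29 tested genes (x axis, KO minus WT, log2; bars are the standard error of the limma fit), sorted by size, with the difference under a slide block as an open diamond. Green points passed the threshold, from -5.26 for Timp3 to 1.60 for Mmp27, and the diamond of Adam15 lies at -0.17 while its point lies at 0.75.

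All 7 ADAMs were tested, 1 fell (Adam19) and 6 did not pass, and these 6 had differences above 0, though those of Adam12, Adam15 and Adam17 changed sign under some settings. Adam19, a sheddase of neuregulins and other growth factors, read 1.12, 0.94 and 1.41 in WT and -0.87, -0.80 and -0.56 in KO. The groups were far apart beside their own spread, and the fall was 3.73-fold (-1.90 ± 0.18, SE, n = 3 per genotype, adjusted p = 0.0093). The slide-blocked difference was -2.02 and still passed (adjusted p = 0.0471), and 19 of 20 alternatives kept the call, the exception being the fit within the slide that holds both genotypes (adjusted p = 0.0667). Dendritic cell markers were lower in KO as well. The summed relative signal of 11 of them was 106.9 to 118 in WT and 63.0 to 71.6 in KO. Of 10 tested, 5 fell (Ccr7, Cd83, Cd209a, Ciita and Ccl22), beside 2.28% of all genes tested, and Xcr1 was dim on every array. Itgax, which makes up most of the sum, and Fscn1 were lower on all KO arrays without passing (-0.31, adjusted p = 0.267, and -0.97, adjusted p = 0.244). Flt3, Zbtb46 and Clec9a overlapped between the genotypes (-0.72, -0.23 and -0.24). The part of dendritic cells in the fall of Adam19 was not tested, and fewer cells of a type cannot be told apart from less RNA per cell in these samples. Of the 3 RefSeq start sites of Adam19, 1 has the AP-1 core, beginning at base -131, and its stretch of 260 bases (GRCm38.p6, chr11:46055734-46055993, plus strand) is shown with the core in capitals.
Adam19: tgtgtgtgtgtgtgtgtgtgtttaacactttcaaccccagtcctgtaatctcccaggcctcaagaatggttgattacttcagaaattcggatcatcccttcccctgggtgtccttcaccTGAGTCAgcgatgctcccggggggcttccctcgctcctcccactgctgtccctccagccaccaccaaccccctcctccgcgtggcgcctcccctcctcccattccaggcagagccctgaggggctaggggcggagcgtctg

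No other ADAM passed the test. Adam8, a leukocyte ADAM, read 5.24, 5.75 and 5.46 in WT and 5.76, 5.90 and 5.98 in KO. Its KO arrays lay just above its WT arrays (0.40 ± 0.18, adjusted p = 0.266). Adam10, the sheddase of Notch receptors and of the chemokines Cx3cl1 and Cxcl16, read 4.73, 4.70 and 4.40 in WT and 5.06, 5.24 and 5.33 in KO. Every KO array was above every WT array, by a difference of 0.60 ± 0.16 that did not pass (adjusted p = 0.105), though it did with a mean-variance trend and robust fit (adjusted p = 0.0362). Adam9, a broadly expressed ADAM, overlapped between the groups, with 4.99, 5.36 and 4.52 in WT and 5.09, 5.46 and 5.72 in KO (0.46, adjusted p = 0.375).

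Adam15, which carries an integrin-binding motif, read alike on the arrays of 1 slide whatever the genotype. It read 4.74, 4.56 and 4.84 in WT and 4.55 in KO 947 on the same slide, against 5.90 and 5.95 in KO 948 and 949 on the other. Its difference of 0.75 ± 0.38 did not pass (adjusted p = 0.326), turned to -0.17 when the slide was a block, and was 1.21 without KO 947 (adjusted p = 0.0236). Adam12 differed by 0.09 and Adam17, the enzyme that releases tumour necrosis factor, by 0.02, both with overlapping groups (Adam17 from 0.55 to 0.72 in WT and from 0.41 to 0.88 in KO).

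Of the 7 ADAMTSs, 3 were tested, and 1 fell (Adamts2). Adamts2, which removes the amino-terminal propeptide of fibrillar procollagens, read -2.82, -2.34 and -3.11 in WT and -5.40, -4.72 and -5.12 in KO. The groups were more than 1.5 log2 units apart, and the fall was 5.01-fold (-2.32 ± 0.26, SE, n = 3 per genotype, adjusted p = 0.0114). The slide-blocked difference was -2.65 and just missed the threshold (adjusted p = 0.0528), with normexp background correction it was -1.24, and without WT 1 the call was lost (adjusted p = 0.0536). A second Adamts2 probe did not show the fall, with -4.02, -4.05 and -3.94 in WT and -4.00, -4.36 and -4.49 in KO (-0.28). The probes disagree on the size of the Adamts2 difference, and their mean gave -1.30. Adamts12, a cartilage oligomeric matrix protein-degrading enzyme, read -3.73, -4.38 and -4.17 in WT and -4.71, -5.13 and -4.81 in KO, lower on all KO arrays without passing (-0.79 ± 0.22, adjusted p = 0.110). Adamts1, a secreted protease of proteoglycans such as versican, read -2.45, -1.97 and -1.75 in WT and -2.26, -2.76 and -2.23 in KO, with overlapping groups (-0.36, adjusted p = 0.453). The other 4 ADAMTSs were well above background on 1 or 2 WT arrays and on no KO array, so none was tested. The share of all genes with this pattern was not counted, and fewer spots were well above background on the KO arrays (62.5% to 65.1%) than on the WT arrays (70.3% to 73.2%). Apart from Adamts4 in WT 1, the WT levels of these genes lay near or below the lowest level well above background (-5.74 in WT 1, -6.16 in WT 2 and -5.76 in WT 3). Adamts4, an aggrecan-degrading enzyme, read -3.43, -5.91 and -7.94 in WT and -7.63, -7.89 and -7.68 in KO, and WT 1 alone was well above background. Adamts5, the other main aggrecanase, read -6.27, -6.29 and -5.07 in WT and -7.16, -5.86 and -6.87 in KO, with WT 3 alone well above background. The groups of Adamts5 overlapped, as did those of the next 2 genes. Adamts7 read -5.31, -6.85 and -6.09 in WT and -6.63, -7.87 and -6.38 in KO, with WT 1 alone well above background. Adamts10, which acts on fibrillin, read -5.60, -6.52 and -5.08 in WT and -7.14, -6.91 and -6.27 in KO, with WT 1 and WT 3 well above background.

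Markers of fibroblasts and stromal cells were lower in KO, and several of the genes above were lower with them. Of the 14 listed, 12 were tested and 4 fell (Col1a1, Col1a2, Sparc and Loxl1), beside 2.28% of all genes tested, with a median of -2.83. Their summed relative signal was 25.7 and 24.5 in WT 1 and WT 2, 6.15 in WT 3 and 0.788, 1.76 and 0.848 on the arrays of KO 947, 948 and 949. Pdgfra and Cxcl12 were dim on every KO array, and Lum was dim on all 6 arrays. Lepr, Fap and Dcn overlapped between the genotypes (0.05, -1.74 and -1.21), and Dcn read -0.03 in KO 948, inside its WT range. WT 3, the lowest WT array of this sum, was also the lowest WT array for Timp1, Mmp23, Mmp3 and Adamts2, but the highest for Timp3, Mmp14, Mmp25 and Adam19. The stromal sum of WT 3 was still above that of every KO array. Smooth muscle markers were summed at 7.51 to 21.7 in WT and 4.30 to 5.18 in KO, mostly through Acta2, which did not pass (-1.43, adjusted p = 0.121). Of 4 tested, 2 fell, beside 2.28% of all genes tested. These were Actg2 and Cnn1, and Cnn1 was well above background on no KO array and so entered the test through the WT arrays. Markers of mast cells, basophils and eosinophils were lower in KO too, with sums of 25.3 to 55.0 in WT and 6.86 to 22.9 in KO and a median of -3.12. Of 8 tested, 3 fell (Prss34, Kit, and Mcpt8, again dim on every KO array), beside 2.28% of all genes tested. Prss34, Kit and Mcpt8 were highest in WT 3, as Timp3, Mmp14, Mmp25 and Adam19 were, but by unlike margins. Timp3 read -1.76 in WT 3 against -1.84 in WT 2, while Mcpt8 read 0.63 in WT 3 against -2.53 in WT 1, its next highest array. On the same list Prg2, which made up most of the sum on every array but KO 949, did not pass (-2.68, adjusted p = 0.262). Cpa3, Epx and Gata2 overlapped between the genotypes (-3.18, -3.06 and -0.18), and Siglecf went the other way, with overlapping groups (0.47, adjusted p = 0.290). Of the dendritic cell, neutrophil, stromal, smooth muscle and mast cell group markers named as past the threshold, Ciita, Sparc and Cnn1 also passed slide-blocked, and the others did not (adjusted p from 0.0528 to 0.214). The part of these cell types in the falls was not tested. Macrophage markers were well above background on all arrays for all 11 with a probe, and their sums were 530 to 621 in WT and 493 to 547 in KO. None of the 11 tested passed (2 had an unadjusted p under 0.05, beside 20.4% of all genes tested). In 6 of the 11 the groups did not overlap, 3 with KO higher and 3 with KO lower, beside 26.9% of all genes tested. The largest difference was that of C1qa (-1.29, adjusted p = 0.0603).

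**Figure D4:**
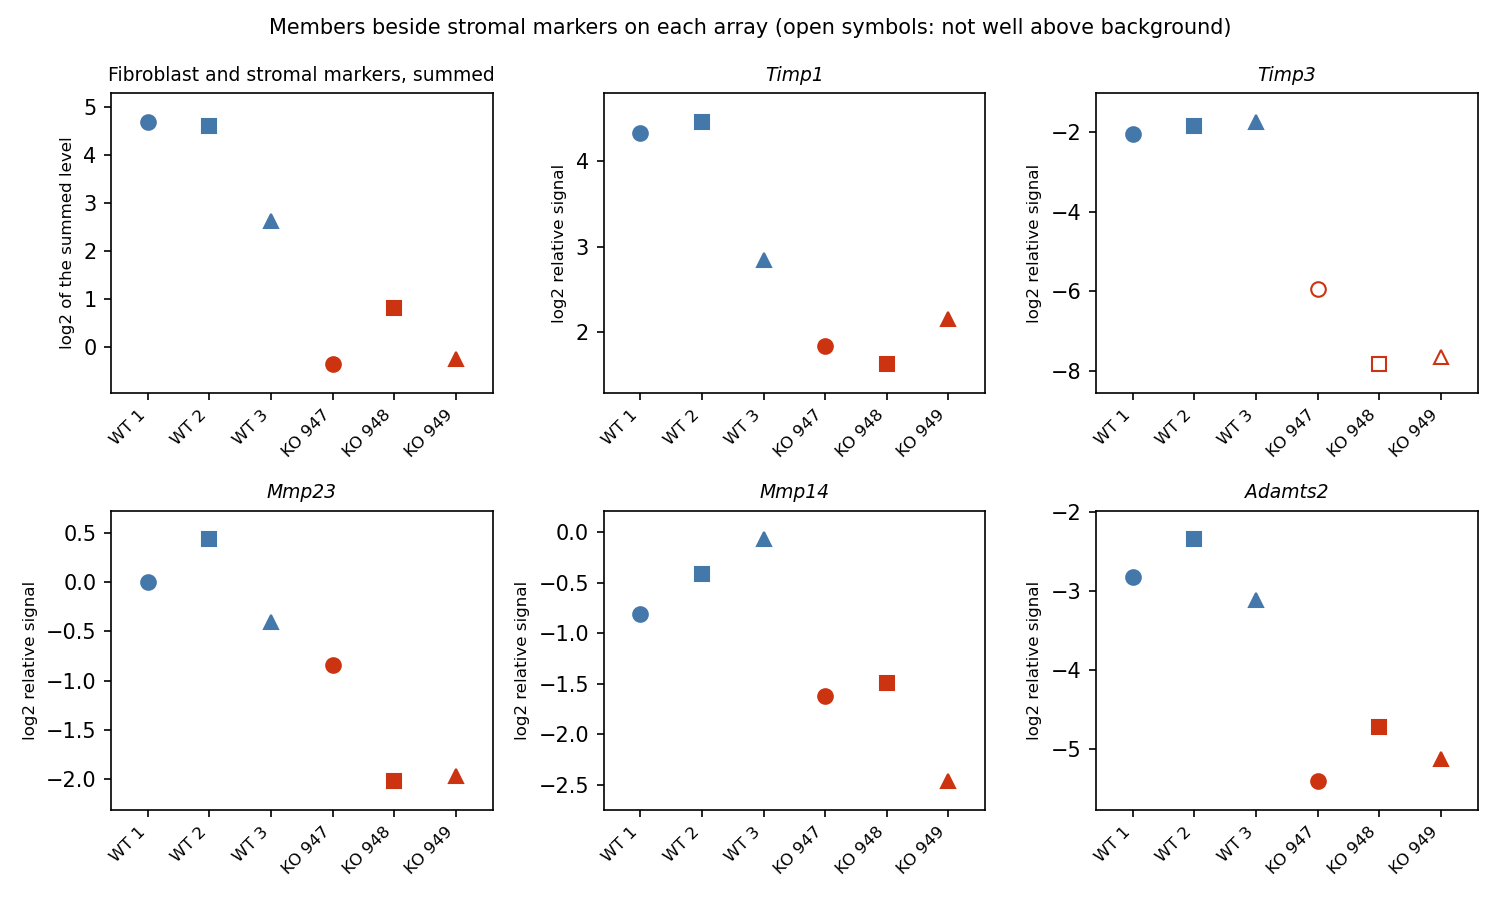
Log2 of the summed relative signal of 14 fibroblast and stromal markers (first panel, y axis) and log2 level of Timp1, Timp3, Mmp23, Mmp14 and Adamts2 (other panels) on each of the 6 arrays (x axis); blue is WT, red is KO, and open symbols are not well above background. WT 3 falls from the other WT arrays in the marker sum and in Timp1 (2.85), but not in Timp3 (-1.76) or Mmp14 (-0.07).

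Genes that act with these enzymes were counted by lists, beside the same 3.43% of all genes tested. Every call named from these lists was lost in the slide-blocked fit, where the adjusted p is given beside it. Of other MMPs, 2 of 6 were tested and none passed the limma test, nor did one reach an unadjusted p under 0.05. Among other ADAMs, 9 of 10 were tested and 1 fell: Adam23, a catalytically inactive ADAM that binds integrins, with a difference of -3.67 (adjusted p = 0.0103, slide-blocked 0.0672). Of other ADAMTSs and ADAMTS-like genes, 8 of 17 were tested and 1 fell, Adamts14, which like Adamts2 trims procollagens (-2.30, adjusted p = 0.0365, slide-blocked 0.141; -2.19, -1.43 and -2.63 in WT and -4.50, -4.89 and -3.75 in KO). The proprotein convertases and sheddase partners, which activate or guide ADAMs and MMPs, had 11 of 13 tested and 1 fall, Tspan33, a tetraspanin that brings Adam10 to the cell surface (-2.28, adjusted p = 0.0114, slide-blocked 0.0769). Rhbdf2, which carries Adam17 through the secretory pathway, differed by 0.03.

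In the plasminogen system, whose product plasmin cleaves MMP proforms, 8 of 12 genes were tested and 1 rose. Plau, the urokinase-type activator, read -2.35, -1.97 and -1.61 in WT and -0.70, -0.96 and -0.50 in KO. The groups did not overlap, and the rise was 1.26 ± 0.23 (adjusted p = 0.0422, slide-blocked 0.158). None of the 7 tested genes among other inducers and inhibitors passed (1 unadjusted p under 0.05). Nor did any of the 18 cathepsins and other matrix proteases (2 unadjusted p under 0.05, beside 20.4% of all genes tested). The medians of these lists were -0.23 and -0.04.

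Among substrates of Adam10 and Adam17, 16 of 20 were tested, and the 3 that fell are given here. The Adam10 substrates Cxcl16 and Cx3cl1 fell, with differences of -1.92 and -1.45 (adjusted p = 0.0103 and 0.0458, slide-blocked 0.0534 and 0.0661), and the adhesion molecule Vcam1 fell by 2.56 (adjusted p = 0.0103, slide-blocked 0.0583), while Tnf differed by -0.09. Neither enzyme passed the test, so these 3 falls stood beside Adam10 and Adam17 differences of 0.60 and 0.02. Matrix substrates of MMPs and ADAMTSs had 17 of 20 tested, 1 rise and 5 falls, with a median of -2.16. Fn1, fibronectin, rose by 1.78 (adjusted p = 0.0318, slide-blocked 0.153). The collagen genes Col1a1, Col1a2 and Col5a1 fell, with differences of -5.62, -5.55 and -2.98 (slide-blocked adjusted p = 0.0848, 0.0534 and 0.0915). Col4a2, a basement membrane collagen, and Nid1, nidogen, were well above background on no KO array and entered the test through the WT arrays. By the floor estimate used for Timp3, which is not a strict lower bound, they were 2.69-fold and 15.1-fold lower in KO (adjusted p = 0.048 and 0.0169, slide-blocked 0.0528 and 0.0923). Col1a1 and Col1a2 are also on the stromal list.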

How the data were processed

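Total RNA was labelled with Cy3 and hybridised to 1 single-colour Agilent array per mouse, per the labels' protocols. The deposited scanner files hold spot intensity values from Agilent Feature Extraction (10.7.3.1 per the file headers, 9.1 per the submitters' processing notes), background-subtracted within each array. A deposited log2 table of the authors, centred per probe with its scaling not given in the sources used here, holds 3215 probes, and in all 3215 the genotypes do not overlap. It served as an alternative and gave the name of the Mmp27 probe. Other probes were named by transcript accession through RefSeq (GRCm38.p6), which gave 26413 of 55681 probes a symbol.

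Each spot's log2 processed signal was reduced by its array's log2 75th percentile, outlier spots were left out and spots of a probe were averaged. A probe counted as well above background on an array where at least 50% of its spots were. Genes had to reach this on 3 of 6 arrays, and of several probes the one with the highest mean was used (15737 genes, 35 with a missing value). KO was compared with WT with limma 3.58.1 in R 4.3.3 (lmFit and eBayes, two-sided). A summed marker signal adds the linear relative signals of the listed genes. The members, lists and rules for named genes were chosen with earlier results of these data known. Of the 36 genes, values on every array are given for those past the test, those read in 1 genotype, the inhibitors and the 3 brightest of each family. Genes of other lists past the test may be named. Calls on some listed genes are not reported here. The fit was tested on simulated data.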

Additional observations from a re-analysis of the deposited data

How the results depend on the processing

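The count of genes that rose, 1 in the analysis above, was 0 without a filter, with a fixed or a random block for the slide, within the slide that holds both genotypes, with sex as a covariate, over the arrays labelled male and with every probe on its own (limma, with 3, 2, 3, 2, 2, 1 and 3 genes higher at an unadjusted p under 0.05). It was 2 with trend and robust, and 2 in the authors' deposited table, whose probes all separate the genotypes. The 4 falls became 2 with the slide as a fixed block (Timp3 and Adam19), 1 within the slide that holds both genotypes (Timp3), 7 with trend and robust and 7 at an adjusted p under 0.1. Leaving out 1 array gave 0 to 2 rises (2 without KO 947) and 2 to 5 falls (2 without WT 1, 5 without WT 3 or KO 947). Timp1, Mmp14 and Mmp23 were lower past the threshold with trend and robust and with the filter on all 6 arrays. Timp3 passed in all 19 alternatives that could test it, and it was left out by the filter on all 6 arrays. These alternatives rest on the same KO readings, none of them well above background, so they are not independent support.

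Signs turned only in differences that did not pass. Mmp2 was 0.078 with scaling to the array median, 0.40 with the slide as a block and within the slide that holds both genotypes, 0.044 with a random block, 0.27 over the arrays labelled male, and -0.41 to 0.11 leaving out 1 array. Mmp13 was -0.066 with quantile normalization, -0.062 with normexp, and -0.22 to 0.24 leaving out 1 array. Timp2 was 0.14 with scaling to the array median, 0.025 with the slide as a block and within that slide, 0.18 as the mean of its probes, and -0.22 to 0.069 leaving out 1 array. Adam15 was -0.17 with the slide as a block and within that slide, Reck -0.051 as the mean of its probes, and Adam17 -0.017 with quantile normalization, -0.022 over the arrays labelled male, and -0.10 to 0.13 leaving out 1 array. Adam12 was -0.0021 to 0.19 leaving out 1 array. The causes were not tested. Scaling to the array median moved the median of all genes from -0.01 to 0.21. Fits that leave a genotype with 1 array assume that it varies like the other. No paired analysis was possible because nothing in the labels pairs a WT mouse with a KO mouse. Signal over background limits Timp3, Mmp3 and the 3 ADAMTSs read on 1 WT array, and 3 arrays per genotype limit the precision throughout.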

Other observations

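A few probes, chosen after their values were seen, are given as values only. Furin, the convertase that activates many MMP and ADAM proforms, read 2.91, 3.15 and 3.14 in WT and 2.04 in KO 947 on their slide, against 3.90 and 4.33 in KO 948 and 949 on the other slide, as Adam15 did at 4.55 against 5.90 and 5.95. A second Reck probe was well above background on the 4 arrays labelled male (-4.38 and -4.43 in WT, -4.70 and -5.05 in KO) and on neither array labelled female (-7.38 in WT 3 and -7.82 in KO 949). Mmp21 was well above background on KO 947 alone (-3.16).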
